A study of Mus musculus with 23 samples.

Results

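Proteasome subunit genes are described here in the hippocampus of mice kept on an alcohol diet with or without urolithin A. They were taken as every gene of the deposited expression table whose symbol begins with Psma, Psmb, Psmc, Psmd, Psme, Psmf or Psmg followed by a number, which gave 51 of 19733 genes. Of these 51, 49 encode subunits, activators, an inhibitor or assembly chaperones of the proteasome. The other two matched by name only and encode partners of such proteins: Psmc3ip, which acts with recombinases in meiosis, and Psme3ip1, a protein that binds the Psme3 activator.

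Hippocampal RNA was sequenced from 23 wild-type male C57BL/6J mice, of which 9 formed the Ctrl group, 7 the EtOH group and 7 the EtOH-UA group. Ctrl mice received the AIN93M control liquid diet and the CMC-Na vehicle by gavage, EtOH mice an ethanol liquid diet and the vehicle, and EtOH-UA mice the ethanol liquid diet and urolithin A (UA) at 200 mg/kg/day by gavage. The diets lasted 16 weeks from an acquisition age of 6 weeks, and 1 week of behavioral tests followed. The study asked whether UA acts on the cognitive and social deficits that chronic alcohol causes, and the comparisons of EtOH with Ctrl mice and of EtOH-UA with EtOH mice address the alcohol and the UA side of that question. The values are FPKM, sequenced fragments corrected for transcript length and for the mapped fragments of each library, so that levels can be compared between genes.

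The proteasome is the protease that degrades proteins marked with ubiquitin. Its barrel-shaped core particle (20S) is built of outer rings of alpha subunits, which form the gate, and inner rings of beta subunits, of which Psmb5, Psmb6 and Psmb7 carry the catalytic sites. The regulatory particle (19S) caps the core: its ATPases (Psmc genes) unfold the substrate, and its other subunits (Psmd genes) bind and remove ubiquitin. In cells exposed to interferon-gamma, Psmb8, Psmb9 and Psmb10 take the places of Psmb5, Psmb6 and Psmb7 and form the immunoproteasome, which cuts peptides for presentation on MHC class I molecules. In neurons, the proteasome takes part in the turnover of synaptic proteins.

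Markers of neurons and of the hippocampus were above 0 in all libraries, at uneven levels. Snap25 ranged from 981 to 1254 FPKM, Wfs1 from 19.03 to 38.6 FPKM and Prox1 from 5.66 to 23.2 FPKM. Of the other hippocampal markers, Neurod6 ranged from 71.3 to 133 FPKM, C1ql2 from 12.99 to 62.2 FPKM and Spink8 from 5.49 to 32.8 FPKM. Zbtb20 was low in some libraries, at 0.44 to 7.20 FPKM. The FPKM of a mouse summed to 330456 to 361354 in the Ctrl group, 327896 to 366930 in the EtOH group and 333801 to 404609 in the EtOH-UA group. Mice are named below by group and a letter that follows the order of the columns and carries no further meaning. EtOH-UA mice B and D stood apart, with the highest sums of all mice, 404609 and 379518, and the next were EtOH mouse C at 366930 and Ctrl mice A, F and I at 358381 to 361354. The same 6 mice had the most negative slope of expression on transcript length, so that short transcripts were relatively high in them. The slope, in log2 units per doubling of length, was -0.25 in EtOH-UA mouse B and -0.15 in EtOH-UA mouse D, against 0.034 to 0.060 in the other EtOH-UA mice. No batch is given in the labels. Because these 6 mice touch most results below, the counts of higher genes are also given without them.

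The core particle was transcribed in a narrow band. The 14 standard core genes, Psma1 to Psma7 and Psmb1 to Psmb7, had means over all mice from 47.2 FPKM (Psmb2) to 115 FPKM (Psmb7). Of all 51 genes, 39 had a mean of 10 FPKM or more, and the median of their means was 47.2 FPKM, against 7.59 FPKM for all 15985 genes tested. Within the alpha ring, Psma3 was the highest. It lay between 78.7 and 106 FPKM in Ctrl mice (median 87.2), between 74.97 and 97.3 FPKM in EtOH mice (median 83.1) and between 79.5 and 136 FPKM in EtOH-UA mice (median 83.6). The lowest alpha gene was Psma8, the variant of Psma7 found in the germ cells of the testis. Psma8 had values of 0.040 to 0.50 FPKM in Ctrl mice (median 0.26), 0.15 to 0.45 FPKM in EtOH mice (median 0.26) and 0.15 to 0.44 FPKM in EtOH-UA mice (median 0.25).

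The ATPases of the regulatory particle had means within the range of the standard core genes, and its other subunits reached lower levels. Psmc1 was the highest ATPase, at 88.1 to 119 FPKM in Ctrl mice (median 102), 90.04 to 125 FPKM in EtOH mice (median 97.6) and 94.2 to 145 FPKM in EtOH-UA mice (median 98.5). Psmc4 was the lowest, with a mean over all mice of 48.2 FPKM. Among the non-ATPases, the mean was highest for the scaffold subunit Psmd2 (71.1 FPKM), closely followed by the ubiquitin receptor Psmd4 (70.9 FPKM), and lowest for the lid subunit Psmd11 (28.1 FPKM). The deubiquitinase subunit Psmd14, which removes ubiquitin chains from the substrate, had a mean of 59.5 FPKM.

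The assembly chaperones among these genes had lower levels than the standard core genes and the ATPases. The chaperones of the 19S base had means of 22.0 FPKM (Psmd5), 8.99 FPKM (Psmd10) and 8.96 FPKM (Psmd9), and those of the 20S core ranged from 6.03 FPKM (Psmg4) to 12.4 FPKM (Psmg2). Among the activators and the inhibitor, the nuclear activator Psme3 was the highest at 43.8 FPKM, and the large activator Psme4 (PA200) and the inhibitor Psmf1 (PI31) had means of 12.3 and 8.39 FPKM. Psme2b, a near-identical copy of Psme2 that may share its reads, was the lowest of this group at 1.49 FPKM, and its value is therefore uncertain.

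The inducible catalytic subunits were far below the constitutive ones they replace. Psmb8 lies at chr17:34198195-34201454 and Psmb9 at chr17:34182030-34187330 of GRCm38, both in the MHC region, and Psmb10 lies at chr8:105935728-105938392. Psmb8 ranged from 1.45 to 2.78 FPKM in Ctrl mice (median 2.05), from 1.38 to 2.69 FPKM in EtOH mice (median 1.96) and from 1.71 to 2.79 FPKM in EtOH-UA mice (median 2.20). Psmb9 ranged from 0.65 to 1.82 FPKM in Ctrl mice (median 1.22), from 0.68 to 1.64 FPKM in EtOH mice (median 1.35) and from 0.61 to 1.82 FPKM in EtOH-UA mice (median 1.41). Psmb10 ranged from 9.30 to 16.1 FPKM in Ctrl mice (median 12.03), from 8.45 to 14.4 FPKM in EtOH mice (median 11.9) and from 9.34 to 15.7 FPKM in EtOH-UA mice (median 11.9). For all 3 genes the groups overlapped over most of their range. In bulk tissue, fewer cells of a type and less RNA per cell cannot be told apart, so these levels do not say which cells of the hippocampus carry the transcripts. Psmb11, the beta subunit of the thymus, was lower still, with a mean of 0.79 FPKM.

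The constitutive partners were far higher and shared their high mice. Psmb5, which carries the chymotrypsin-like site, lies at chr14:54614120-54617995. It ranged from 68.3 to 99.7 FPKM in Ctrl mice (median 81.6), from 62.3 to 102 FPKM in EtOH mice (median 72.4) and from 72.8 to 139 FPKM in EtOH-UA mice (median 77.1). Psmb6, with the caspase-like site, ranged from 48.5 to 67.7 FPKM in Ctrl mice (median 56.4), from 44.4 to 71.8 FPKM in EtOH mice (median 52.0) and from 50.2 to 91.5 FPKM in EtOH-UA mice (median 51.6). Psmb7, with the trypsin-like site, ranged from 95.2 to 145 FPKM in Ctrl mice (median 109.9), from 99.8 to 137 FPKM in EtOH mice (median 107) and from 94.8 to 168 FPKM in EtOH-UA mice (median 103). In the EtOH group the highest value of each of these 3 genes was that of mouse C, and in the EtOH-UA group that of mouse B, followed by mouse D. The PA28 activator, whose subunits Psme1 and Psme2 are also induced by interferon-gamma, stood in between. Psme1 ranged from 27.6 to 35.5 FPKM in Ctrl mice (median 30.2), from 26.2 to 35.6 FPKM in EtOH mice (median 30.0) and from 26.2 to 43.7 FPKM in EtOH-UA mice (median 29.3). Psme2 ranged from 15.2 to 25.4 FPKM in Ctrl mice (median 19.1), from 15.8 to 27.2 FPKM in EtOH mice (median 17.7) and from 16.2 to 34.0 FPKM in EtOH-UA mice (median 17.5).

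**Figure D1:**
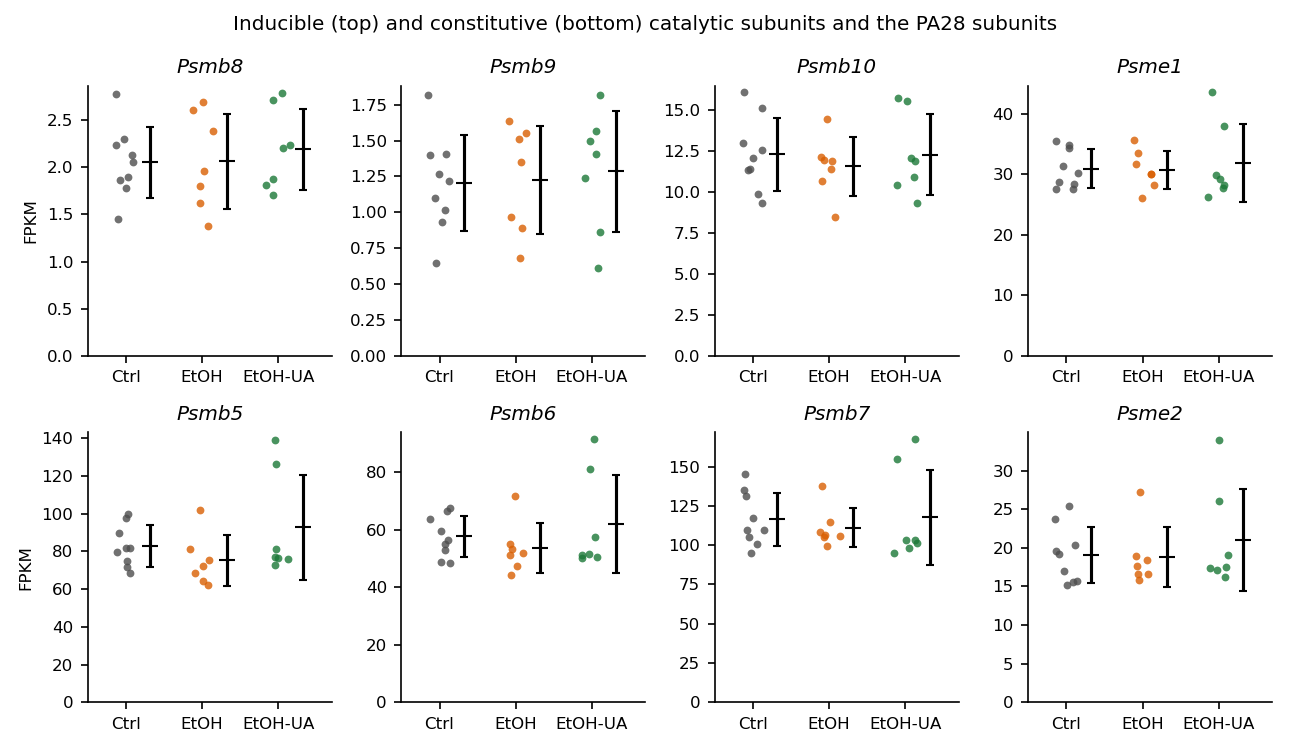
FPKM of the inducible catalytic subunits and Psme1 (top) and of the constitutive catalytic subunits and Psme2 (bottom) in each mouse, by group (9 Ctrl, 7 EtOH and 7 EtOH-UA mice). Each point is 1 mouse, the bar and whiskers are mean and SD, and every axis starts at 0. The groups overlap in all 8 panels, and the highest 2 EtOH-UA points of Psmb5, Psmb6 and Psmb7 lie apart from the other 5.

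The balance of inducible to constitutive subunits was measured within each mouse, where the scale of the library cancels. The slope on transcript length does not cancel where the transcripts differ in length. Psmb8 has 1628 bases against 899 for Psmb5, Psmb9 1352 against 798 for Psmb6, and Psmb10 1311 against 1160 for Psmb7. The part of the slope in these ratios was not tested, and the shares below are those of all mice. In Ctrl mice, Psmb8 was 2.49% ± 0.405 of Psmb5 (SD, n = 9), Psmb9 was 2.08% ± 0.502 of Psmb6 and Psmb10 was 10.5% ± 1.07 of Psmb7. In EtOH mice these shares were 2.78% ± 0.728, 2.29% ± 0.635 and 10.4% ± 0.953 (n = 7). In EtOH-UA mice they were 2.42% ± 0.351, 2.10% ± 0.621 and 10.5% ± 1.07 (n = 7). The ranges of the groups overlapped for each ratio. The log2 ratio of Psmb8 to Psmb5 was 0.14 higher in EtOH than in Ctrl mice (two-sided exact permutation p = 0.366) and differed by -0.18 between EtOH-UA and EtOH mice (two-sided exact permutation p = 0.282). Over the 9 tests of these ratios, unadjusted, the other exact permutation p-values lay between 0.504 and 0.983.

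Promoter sequences are shown for the catalytic subunit Psmb5 and for Psmb8, which takes its place, together with Psmb9, since these genes are known to answer to different signals: NRF1 (Nfe2l1) for the constitutive genes, through antioxidant response elements, and interferon-gamma for the inducible genes. Each line gives the 150 bases before the RefSeq gene start, 5′ to 3′ on the strand of the gene, from GRCm38.p6, with matches to the motifs searched in capitals.
Psmb5, chr14:54617996-54618145, minus strand: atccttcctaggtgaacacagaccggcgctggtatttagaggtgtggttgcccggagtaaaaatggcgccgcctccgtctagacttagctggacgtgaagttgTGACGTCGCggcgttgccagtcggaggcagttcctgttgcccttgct
Psmb8, chr17:34198045-34198194, plus strand: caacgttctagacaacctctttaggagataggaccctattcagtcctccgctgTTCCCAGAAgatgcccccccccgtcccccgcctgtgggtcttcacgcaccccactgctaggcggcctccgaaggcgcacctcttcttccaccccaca
Psmb9, chr17:34187331-34187480, minus strand: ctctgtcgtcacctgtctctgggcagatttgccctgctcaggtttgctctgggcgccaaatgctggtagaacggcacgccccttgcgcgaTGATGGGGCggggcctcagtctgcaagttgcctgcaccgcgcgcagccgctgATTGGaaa

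In the window of Psmb5 the capitals mark TGACNNNGC, the stricter form of the antioxidant response element, which begins 47 bases before the start. In that of Psmb8 they mark a gamma-activated site, TTCNNNGAA, which begins 97 bases before the start. In that of Psmb9 they mark TGANNNNGC, the loose form of the antioxidant response element, and a CCAAT box on the other strand, written ATTGG. Motifs were searched on both strands in the RefSeq windows from 250 bases before to 50 bases after each start, which were given for 43 of the 51 genes. Some genes have several starts, so that these genes had 47 windows. TGANNNNGC was in 57.4% of the 47 windows, against 41.3% of all 32851 windows, and every TGACNNNGC is also a TGANNNNGC. TGACNNNGC was in 6 of the 47 (12.8%; all windows 12.4%), those of Psmb5, Psmb6, Psmc6, Psmd9, Psmd12 and Psme4. The interferon-stimulated response element was in 5 (10.6%; all windows 3.44%), those of Psmb3, Psmd4, Psmd9, Psme1 and Psmg4, and in none of the inducible catalytic genes within these windows. TTCNNNGAA was in 3 (6.38%; all windows 8.30%), CCAAT in 16 (34.0%; all windows 37.4%) and the TATA box TATAAA in 4 (8.51%; all windows 13.6%). These matches are letters in a window and were not tested as binding sites.

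**Figure D2:**
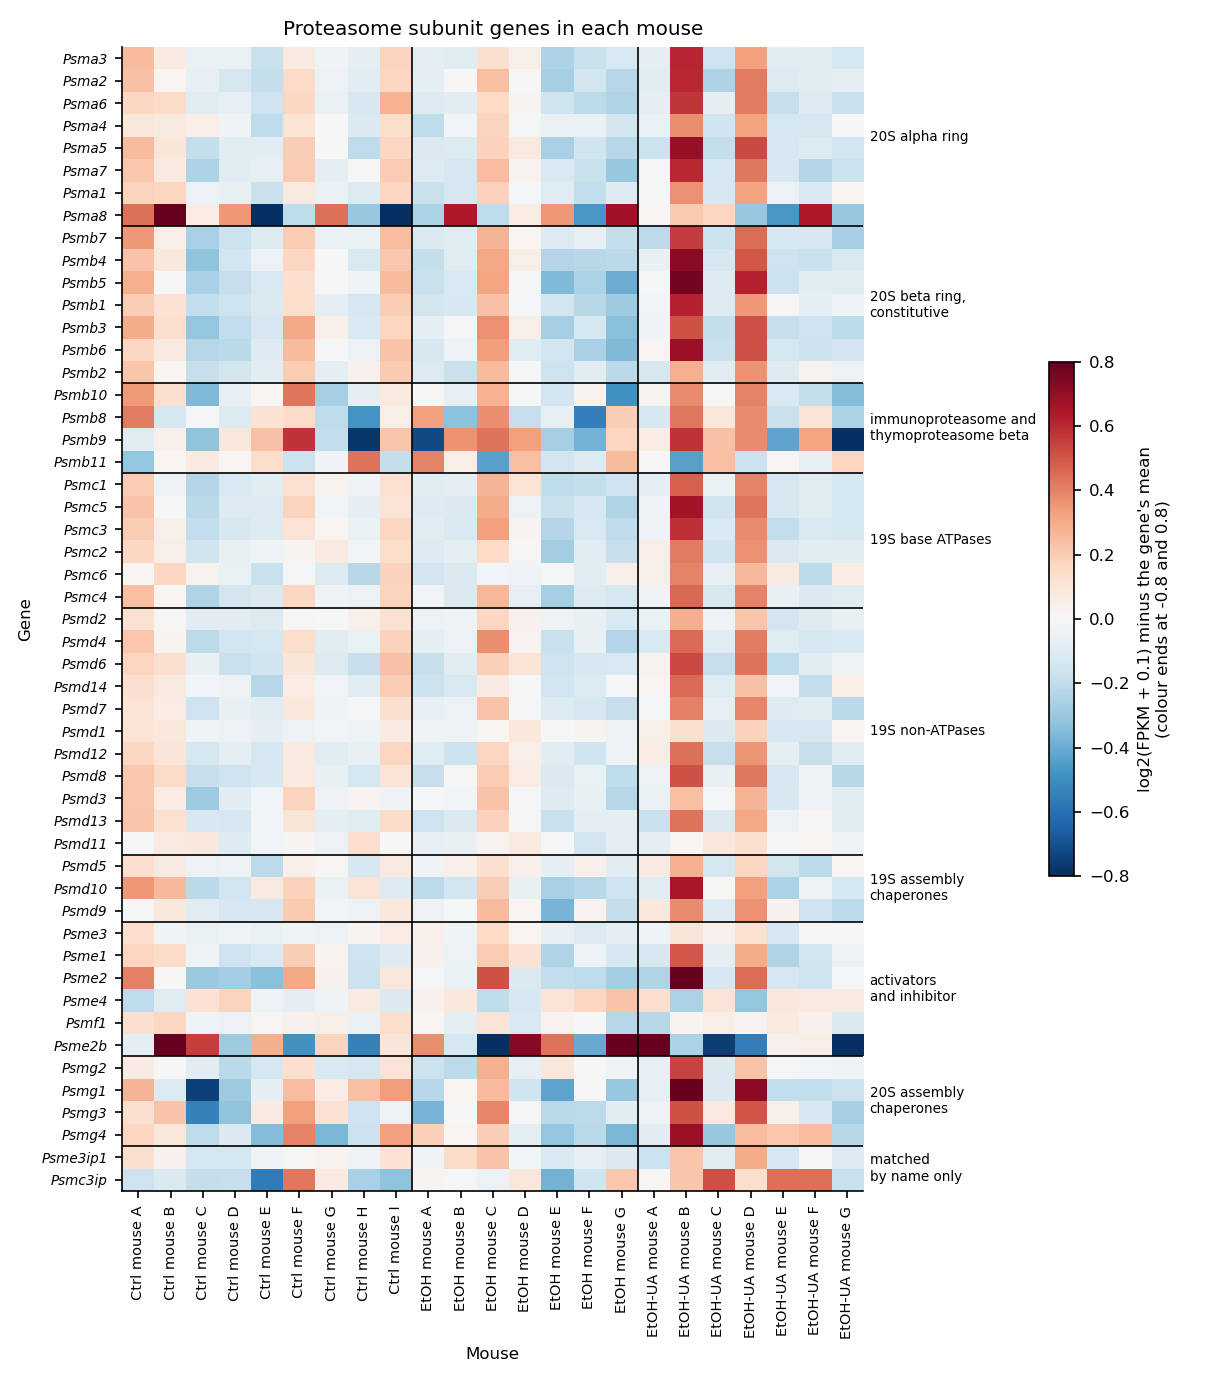
Level of the 51 genes in each of the 23 mice, as log2(FPKM + 0.1) minus the mean of the gene over all mice, with genes grouped by role (rows) and mice by group (columns). Red is above and blue below the mean of the gene. EtOH-UA mouse B is red for 48 genes and EtOH-UA mouse D for 47, from the alpha ring to the 19S non-ATPases.

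Most of the genes were high in the same mice. In EtOH-UA mouse B, 48 of the 51 genes were above their own mean over all mice, in EtOH-UA mouse D 47, in EtOH mouse C 45 and in Ctrl mice A, F and I 43 to 44. The lowest counts were 4 in Ctrl mouse D and 6 in EtOH mouse E. The median deviation of the 51 genes, on the log2(FPKM + 0.1) scale, was 0.46 in EtOH-UA mouse B and 0.36 in EtOH-UA mouse D. It was 0.20 in EtOH mouse C and 0.14 to 0.17 in Ctrl mice A, F and I. In the other 17 mice it lay between -0.17 and 0.069, and the 6 mice with the highest summed FPKM were also the 6 with the highest median. The highest of all 23 values was that of EtOH-UA mouse B for 36 genes (70.6%), against 23.3% of all genes tested, and that of EtOH-UA mouse D for 5 more (9.80%, against 5.66%).

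**Figure D3:**
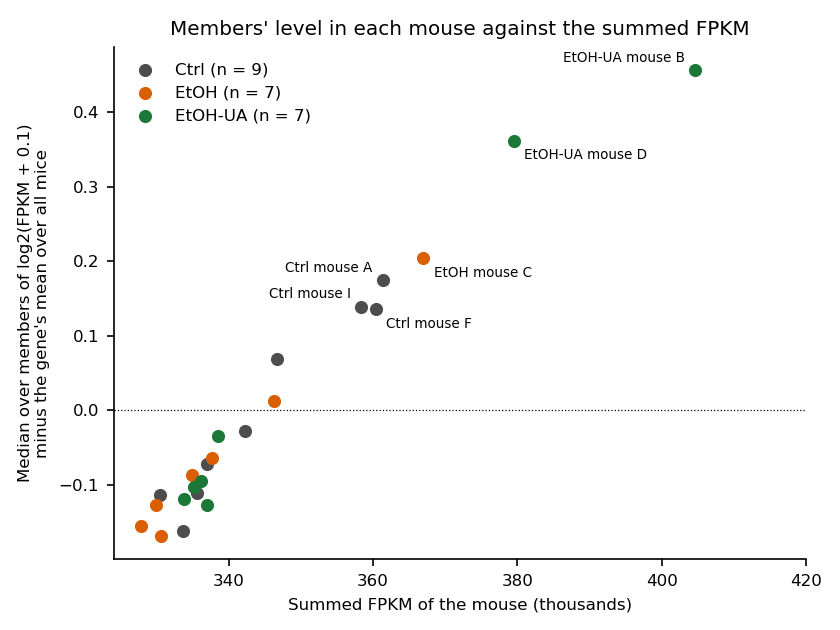
Median deviation of the 51 genes in each mouse, on the log2(FPKM + 0.1) scale relative to the mean of each gene over all mice, against the summed FPKM of the mouse (axis in units of 1000 FPKM). Each point is 1 mouse, coloured by group. The 6 named mice, which come from all 3 groups, have the highest sums and the highest medians, and EtOH-UA mice B and D lie at the far end.

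In EtOH-UA mouse B the deviation was 0.92 for the core chaperone Psmg1, 0.82 for Psme2, 0.76 for Psmb5 and 0.72 for Psmb4. Among genes with a mean over 10 FPKM it was smallest for Psme4, at -0.25, and for Psmd11, at 0.014. Psmb11 stood at -0.44 and Psme2b at -0.25. The annotated transcript of Psme4 is 6491 bases long and that of Psmb11 4247, against 899 for Psmb5 and 1044 for Psmg1. Across the 49 genes with a mean of 1 FPKM or more, the deviation in EtOH-UA mouse B was smaller for longer transcripts (Spearman rho across genes -0.50). Across 15670 tested genes with a length it was -0.50 as well, and genes of 1 library are no independent replicates. Within the length class of 1 to 2 kb the median deviation in EtOH-UA mouse B was 0.49 for 28 proteasome genes and 0.30 for 3584 tested genes, and among transcripts over 4 kb it was -0.25 for 3 proteasome genes and -0.21 for 4364 tested genes. Set against the median of tested genes in 20 classes of length, 42 of the 51 genes were above it in EtOH-UA mouse B and 44 in EtOH-UA mouse D. The count was 41 in EtOH mouse C, 37 in each of Ctrl mice A and I, and 30 in Ctrl mouse F. Whether transcript length accounts for the common movement was not tested.

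**Figure D4:**
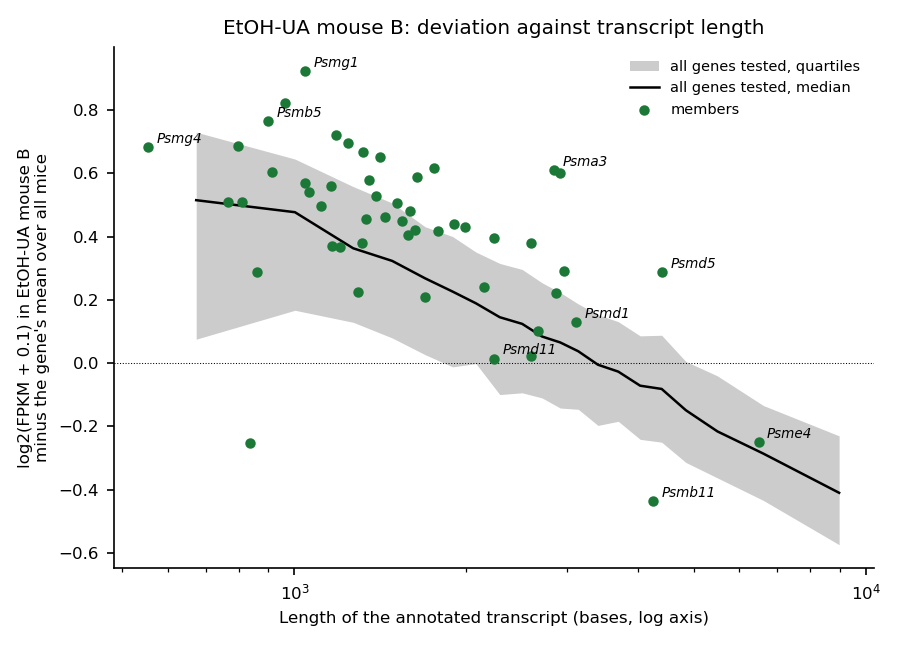
Deviation of log2(FPKM + 0.1) in EtOH-UA mouse B from the mean of the gene over all mice, against the length of its annotated transcript in bases (log axis). Green points are the 51 genes, the line is the median and the grey band the quartiles of all tested genes in 20 classes of length. The line falls with length, and 42 of the 51 points lie above the median of their class.

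The common movement made up much of the spread of these genes. The median SD within groups, on the log2 scale, was 0.204 for the 51 genes, and 0.0919 after the median of the 51 genes in each mouse was subtracted. The SD became smaller for 42 of the 51 genes (82.4%), whereas the same subtraction lowered it for 24.2% of all tested genes and 33.8% of those with a mean of 10 FPKM or more. The subtracted median was computed from the 51 genes themselves, which favours them in this comparison. Psmd11 and Psme3 were the steadiest, with SDs of 0.0719 and 0.0784, and Psme2b, Psma8 and Psmb9, all with means under 2 FPKM, varied most, with SDs of 0.647, 0.552 and 0.443. The markers of choroid plexus, which also varied widely between libraries, took opposite values in the highest mice: their summed FPKM was 7813 in EtOH-UA mouse B and 15.95 in EtOH-UA mouse D. The summed oligodendrocyte markers, at 1243 and 1134 FPKM in these mice, lay within the range of the other EtOH-UA mice, 1081 to 2198 FPKM. Other marker sets were high in some of the same mice. The summed endothelial markers had their 3 highest values in the mice with the highest median of the proteasome genes. These were 104 FPKM in EtOH-UA mouse B, 94.2 FPKM in EtOH mouse C and 92.3 FPKM in EtOH-UA mouse D. The other mice had 69.95 to 90.9 FPKM. The single endothelial markers did not all follow the sum. The highest value lay in the EtOH-UA group for Cldn5 (1416 bases) and Ly6c1 (811 bases). It lay in the EtOH group for Pecam1 (3283 bases) and in the Ctrl group for Flt1 (6895 bases) and Slco1a4 (3037.5 bases). The summed blood markers were highest in EtOH-UA mouse B, at 276 FPKM, followed by 201 FPKM in EtOH mouse D. They stood at 196 FPKM in EtOH mouse C, 180 FPKM in EtOH-UA mouse E and 175 FPKM in EtOH-UA mouse D. In Ctrl mice A, F and I they were 102 to 108 FPKM. Among the blood markers, the Hba and Hbb transcripts have 554 to 703 bases and that of Alas2 1964.5. The summed microglial markers were 141 FPKM in both Ctrl mouse A and EtOH-UA mouse B, the highest values, and 108 to 138 FPKM in the others. EtOH-UA mouse D, at 133 FPKM, and EtOH mouse C, at 131 FPKM, were below EtOH-UA mouse E, at 135 FPKM. The part of these cell types in the values of the proteasome genes was not tested, nor was that of transcript length in the marker sums.

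Summed over the genes of each subcomplex, the EtOH-UA mice had the highest means and the widest spread. The 8 alpha ring genes together had 512 ± 48.6 FPKM in Ctrl mice (SD, n = 9), 480 ± 47.6 FPKM in EtOH mice (n = 7) and 532 ± 117 FPKM in EtOH-UA mice (n = 7). The 7 constitutive beta genes had 560 ± 71.7, 524 ± 74.2 and 593 ± 148 FPKM in the same order, and the 6 ATPases 468 ± 40.9, 448 ± 48.9 and 495 ± 99.96 FPKM. The difference between EtOH-UA and EtOH mice was larger than the SD of the EtOH group for the alpha ring but smaller than that of the EtOH-UA group, and these sums were not tested. The medians of the EtOH-UA group lay below its means, at 469 FPKM for the alpha ring and 508 FPKM for the beta ring. The inducible and thymic beta genes together had 16.3 ± 2.62, 15.7 ± 1.94 and 16.5 ± 3.10 FPKM.

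The comparison of EtOH with Ctrl mice addresses alcohol, and it shares its EtOH mice with the second comparison below and its Ctrl mice with the third. Most proteasome genes had slightly lower means in EtOH than in Ctrl mice, and the groups overlapped for every gene. Of the 51 genes, 9 were higher and 42 lower in EtOH mice, whereas 48.6% of all genes tested were higher, and the median log2 fold change was -0.052, against -0.0030 over all genes. All 7 constitutive beta genes, all 6 ATPases and all 11 non-ATPases were lower, with subgroup medians of -0.094, -0.066 and -0.048 in log2. No gene passed the adjusted threshold of 0.05 in the limma fit, and neither did any of the other genes tested (0%), the smallest adjusted p of the 51 being 0.999. At an unadjusted p under 0.05, 0 of the 51 were counted, against 3.05% of all genes (1.95% higher and 1.10% lower in EtOH mice), and the exact permutation test also gave 0. None of the 51 had groups that did not overlap, against 0.00626% of all genes.

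The smallest unadjusted p among the lower genes was that of the chaperone Psmd10 (gankyrin). Psmd10 ranged from 7.63 to 11.3 FPKM in Ctrl mice (median 9.33) and from 7.40 to 10.2 FPKM in EtOH mice (median 7.88). EtOH mice E and F, at 7.40 and 7.56 FPKM, were below every Ctrl mouse, and EtOH mouse C, at 10.2 FPKM, was above the Ctrl median. Its log2 fold change was -0.18 ± 0.11 (SE; two-sided exact permutation p = 0.0706; limma adjusted p = 0.999). The inhibitor Psmf1 followed with -0.082 ± 0.055 (8.06 to 9.41 FPKM in Ctrl and 7.12 to 9.05 FPKM in EtOH mice) and the lid subunit Psmd11 with -0.052 ± 0.041 (26.1 to 30.8 and 25.2 to 29.6 FPKM). Of the higher genes, the smallest p belonged to Psmc3ip (0.11 ± 0.12), Psme4 (0.063 ± 0.076) and Psma8 (0.20 ± 0.27). Among the catalytic and PA28 genes, the log2 fold change was -0.15 ± 0.13 for Psmb5, with a 95% interval from -0.42 to 0.12. It was -0.11 for Psmb6, -0.063 for Psmb7, -0.0099 for Psmb8, 0.016 for Psmb9, -0.082 for Psmb10, -0.011 for Psme1 and -0.023 for Psme2. For the scarce Psmb9 the interval ran from -0.42 to 0.45, so that differences within it were not detectable.

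The tilt towards lower values in EtOH mice kept its direction in every set of mice tried, but its size changed. It was not seen with the slope on transcript length as a covariate. Without EtOH mouse C, 5 genes were higher (median log2 fold change -0.10), against 48.8% of all genes. An unadjusted p under 0.05 was then given to 7 of the 51 genes by the exact permutation test (13.7%, against 9.01% of all genes) and to 1 by limma (1.96%, against 5.87%). Without Ctrl mouse A, 15 were higher. Of the 6 mice with the highest summed FPKM, 3 are Ctrl mice and 1 is an EtOH mouse. Without these 6 mice, 17 genes were higher, against 52.0% of all genes, and the median was -0.027. When group medians of FPKM were compared in place of means, 11 were higher and 39 lower, against 48.3% of all genes higher. With the slope on transcript length as a covariate, 28 of the 51 were higher and the median was 0.0054, beside 49.9% of all genes.

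The comparison of EtOH-UA with EtOH mice addresses UA under alcohol. Most proteasome genes had higher means with UA, and without 2 of the EtOH-UA mice most had lower means. Of the 51 genes, 45 were higher, against 51.2% of all genes tested, and the median log2 fold change was 0.10, against 0.0033 over all genes. All 7 constitutive beta genes, all 6 ATPases, all 11 non-ATPases and all 4 core chaperones were higher, with subgroup medians of 0.17, 0.13, 0.090 and 0.18 in log2. No gene passed the adjusted threshold in limma (0% of all genes; smallest adjusted p of the 51, 0.900). At an unadjusted p under 0.05 the limma and the exact permutation tests each counted 0 of the 51, where limma counted 3.27% of all genes (1.83% higher with UA and 1.45% lower), and 0 of the 51 had groups that did not overlap (0.025% of all genes).

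Without EtOH-UA mice B and D, 15 of the 51 genes were higher with UA and the median was -0.037, while 49.7% of all genes were higher. When group medians of FPKM were compared in place of means, 31 of the 51 were higher, against 48.2% of all genes. Without all 6 mice of high summed FPKM, 31 were higher (median 0.0097), against 50.2% of all genes. With the length covariate 21 were higher (median -0.0095), against 48.6%. Leaving out EtOH mouse C, the high mouse of the other group, gave 47 genes higher, against 50.4% of all genes, and a median of 0.16. An unadjusted p under 0.05 was then given to 5 genes by limma (9.80%, against 7.76% of all genes) and to 2 by the exact permutation test (3.92%, against 5.94%).

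The smallest unadjusted p among the higher genes was that of Psmc3ip, which is no proteasome subunit and is described below. The next were the beta subunits Psmb1 and Psmb5. Psmb1 ranged from 66.2 to 95.2 FPKM in EtOH mice (median 73.1) and from 75.4 to 124 FPKM in EtOH-UA mice (median 79.7), a log2 fold change of 0.21 ± 0.10 (SE; two-sided exact permutation p = 0.115; limma adjusted p = 0.900). For Psmb5 it was 0.27 ± 0.14, with a 95% interval from -0.013 to 0.56 (two-sided exact permutation p = 0.159; limma adjusted p = 0.900). Without EtOH-UA mice B and D these log2 fold changes were 0.058 and 0.047. The values of the other genes named above were 0.18 for Psmb6, 0.054 for Psmb7, 0.096 for Psmb8, 0.050 for Psmb9, 0.076 for Psmb10, 0.036 for Psme1 and 0.13 for Psme2, and without both mice each of these 7 was below 0. The lower genes with the smallest p were Psme2b (-0.32 ± 0.32), Psme4 (-0.053 ± 0.080) and Psmb11 (-0.071 ± 0.14). Psme4 ranged from 10.6 to 14.3 FPKM in EtOH mice and from 9.84 to 13.4 FPKM in EtOH-UA mice, and mice B and D held the lowest values of the EtOH-UA group.

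**Figure D5:**
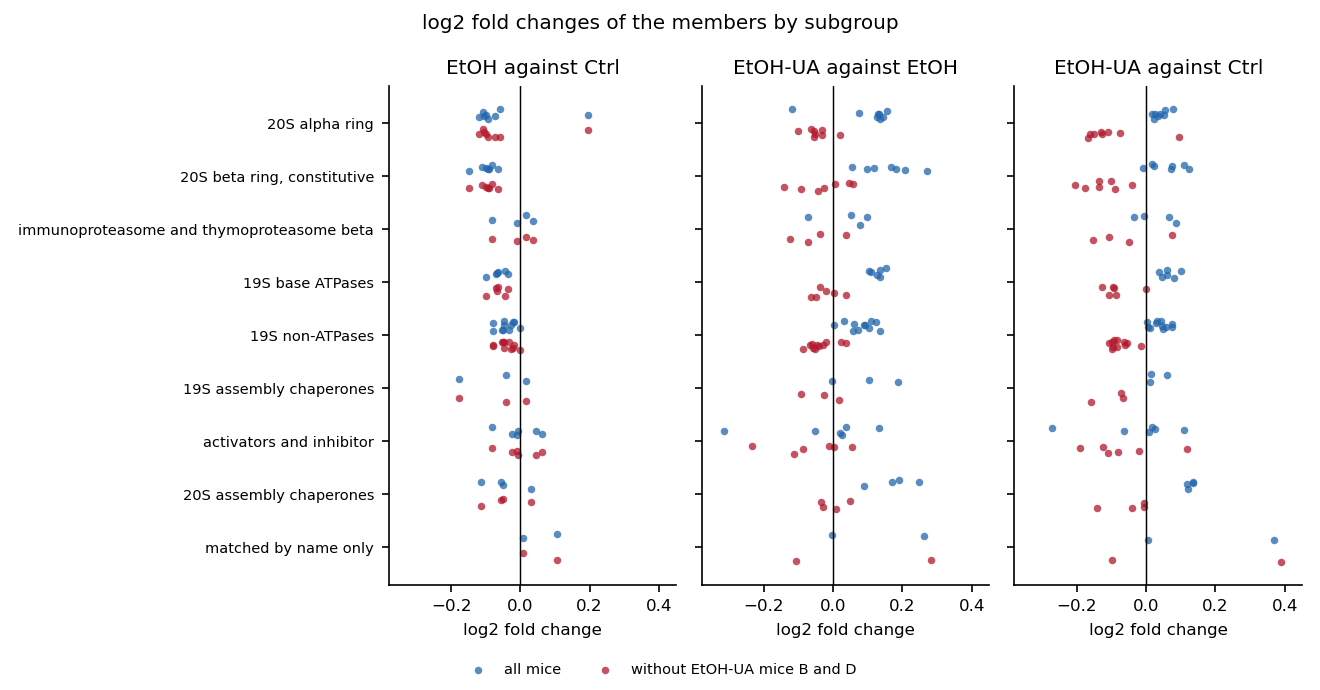
log2 fold changes of the 51 genes by subgroup in the 3 comparisons, from the limma fit of all 23 mice (blue) and of the 21 mice left without EtOH-UA mice B and D (red). Each point is 1 gene, and the vertical line marks no difference. In both comparisons of EtOH-UA mice most blue points lie above 0 (45 and 46 of 51) and most red points below (15 and 5 of 51 above 0).

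The comparison of EtOH-UA with Ctrl mice sets alcohol and UA together against neither. Relative to Ctrl mice, 46 of the 51 genes were higher, beside 51.2% of all genes tested, and the median log2 fold change was 0.045, against 0.0024 over all genes. No gene passed the adjusted threshold in limma (0% of all genes). At an unadjusted p under 0.05 there was 1 of the 51 (1.96%), a higher one, against 3.08% of all genes (1.56% higher with alcohol and UA and 1.52% lower), and 0 of the 51 had groups that did not overlap (0.0125% of all genes). The direction turned with the same mice. Without EtOH-UA mice B and D, 5 genes were higher and the median was -0.096, while 49.4% of all genes were higher. Without all 6 mice of high summed FPKM, 3 of them Ctrl mice, 16 were higher (median -0.025), against 52.5% of all genes. Without mouse B alone 16 were higher and without mouse D alone 21. By group medians of FPKM 17 were higher and 34 lower, against 47.9% of all genes higher.

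The gene with a p under 0.05 was Psmc3ip, at chr11:101092141-101095435. Its values were 1.42 to 2.90 FPKM in Ctrl mice (median 1.87), 1.62 to 2.50 FPKM in EtOH mice (median 2.12) and 1.88 to 3.09 FPKM in EtOH-UA mice (median 2.51). The 3 highest EtOH-UA mice, C, E and F at 2.93 to 3.09 FPKM, were above every Ctrl and EtOH mouse, while the lowest, mouse G at 1.88, lay among the Ctrl values. The log2 fold change was 0.37 ± 0.12 in EtOH-UA against Ctrl mice (1.29-fold; limma adjusted p = 0.999; two-sided exact permutation p = 0.0171, unadjusted, among 153 such tests of the 51 genes). It was 0.26 ± 0.13 in EtOH-UA against EtOH mice (two-sided exact permutation p = 0.0501; limma adjusted p = 0.900). Unlike those of the subunits, this value was as large without EtOH-UA mice B and D (0.39). It lay between 0.27 and 0.45 under the alternatives tried, and the smallest adjusted p under them was 0.734. Psme3ip1 had means of 22.2 FPKM in Ctrl mice and 22.4 FPKM in both other groups.

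The next smallest p-values among the higher genes in this comparison were those of the ATPase Psmc6 (0.0995 ± 0.071 in log2) and of the core chaperone Psmg2 (0.12 ± 0.085). Among the lower genes they were those of Psmf1 (-0.063 ± 0.055), Psme2b (-0.27 ± 0.30) and Psmb11 (-0.034 ± 0.13). Psmc6 ranged from 50.2 to 66.5 FPKM in Ctrl mice (median 57.8) and from 50.6 to 76.9 FPKM in EtOH-UA mice (median 61.0). Without EtOH-UA mice B and D its log2 fold change was 0.0008.

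Genes that work with the proteasome and lie outside the naming rule had smaller differences. The 27 partners found in the table comprise assembly and receptor factors, ubiquitin genes and the transcription factor Nfe2l1 (NRF1), which drives the genes of the proteasome when its activity is low. Of these, 7 (25.9%) were higher in EtOH against Ctrl mice, against 48.6% of all genes tested (median log2 fold change -0.032). In EtOH-UA against EtOH mice 22 (81.5%) were higher, against 51.2% of all genes (median 0.046). In EtOH-UA against Ctrl mice 19 (70.4%) were higher, against 51.2% (median 0.035). At an unadjusted limma p under 0.05 there were 0 in each comparison, against 3.05%, 3.27% and 3.08% of all genes. The exact permutation test gave an unadjusted p under 0.05 to Ufd1 in the first and to Nfe2l1 in the last. The share of all genes under that test is not given for all mice, so these calls cannot be read as particular to the partners. Their median deviation was 0.21 in EtOH-UA mouse B and 0.13 in EtOH-UA mouse D, both among the highest, and -0.077 to 0.095 in the other mice. Nfe2l1 was among the steadiest, at 76.3 to 84.0 FPKM in Ctrl mice (median 77.7), 75.7 to 83.8 FPKM in EtOH mice (median 76.7) and 74.7 to 78.3 FPKM in EtOH-UA mice (median 77.1). Its log2 fold change in EtOH-UA against Ctrl mice was -0.053 ± 0.033 (limma adjusted p = 0.999; two-sided exact permutation p = 0.0357, unadjusted), the smallest limma p of the partners there. The core maturation factor Pomp ranged from 79.3 to 151 FPKM over all mice, the ubiquitin receptor Adrm1 from 27.5 to 50.5 FPKM and the small lid subunit Sem1 from 44.1 to 84.9 FPKM, each with its highest value in the EtOH-UA group. Ufd1, which works with the VCP segregase, had the smallest limma p of the partners in EtOH against Ctrl mice, with a log2 fold change of -0.080 ± 0.045 (limma adjusted p = 0.999; two-sided exact permutation p = 0.0233, unadjusted). It had the smallest in EtOH-UA against EtOH mice too, at 0.092 ± 0.048 (limma adjusted p = 0.900; two-sided exact permutation p = 0.0524, unadjusted).

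Genes of the interferon response and of peptide presentation are known to be induced with the immunoproteasome. None of them passed the adjusted threshold in any comparison, and neither did any other gene tested. Of 10 such genes, 5 were higher in EtOH against Ctrl mice, against 48.6% of all genes tested. In EtOH-UA against EtOH mice 7 were higher, and 7 in EtOH-UA against Ctrl mice, against 51.2% of all genes in each. At an unadjusted limma p under 0.05 there were 0 in any comparison, against 3.05%, 3.27% and 3.08% of all genes. With shares this low, 0 of 10 is no result particular to these genes. The smallest p-values belonged to Nlrc5, the transactivator of MHC class I genes, in EtOH against Ctrl mice (log2 fold change 0.21 ± 0.13) and to the peptidase Erap1 in EtOH-UA against EtOH mice (-0.15 ± 0.095). Nlrc5 had values of 0.11 to 0.28 FPKM in Ctrl mice (median 0.15) and 0.17 to 0.25 FPKM in EtOH mice (median 0.21). Tap1, a peptide transporter encoded beside Psmb9, ranged from 1.02 to 1.77 FPKM over all mice, and B2m, the light chain of MHC class I molecules, from 57.3 to 114 FPKM.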

How the data were processed

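Hippocampal RNA-seq values of 23 mice (9 Ctrl, 7 EtOH, 7 EtOH-UA) were analysed. Per the methods, the authors sequenced poly(A)+ RNA, aligned reads to mm10 with Bowtie2 and quantified them with RSEM. The labels name total RNA, and the submitters' processing notes name Bowtie2 2.2.5, RSEM 1.2.8 and HISAT2 2.1.0. The deposited table holds FPKM, scaled by the authors for transcript length and library size and rounded to 2 decimals, for 19733 genes. The group of a column came from its name, and no column was left out. FPKM are not counts, so the count test of the methods was not used. Total fragments are unknown: of 575 low genes with 1 transcript, 79 had values on a common grid (within 0.01 FPKM), which was too few to recover reads.

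Values were taken as log2(FPKM + 0.1). Genes reaching a mean of 0.1 FPKM (15985, with all 51 proteasome genes) entered a model in limma 3.58.1 (R 4.3.3) (eBayes with trend, 3 groups, no covariate), with Benjamini-Hochberg adjustment over all genes tested and a threshold of 0.05. The pseudocount understates the fold change of low genes. Single genes and ratios were tested by two-sided exact permutation of group labels, over 11440 splits of the mice (with Ctrl) or 3432 (EtOH-UA against EtOH). Each mouse is 1 replicate; mice were housed 4 per cage, and cages are not given. Transcript lengths came from GENCODE M21, and coordinates and promoters from RefSeq GRCm38.p6. Psmb1, Psmb2, Psmb7 and 5 other genes had no promoter window.

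Named genes were set by rule: Psmb5 to Psmb10, Psme1 and Psme2, the highest and lowest gene of each subgroup, the 3 smallest p in each direction of each comparison, both genes matched by name only, Nfe2l1, Pomp, Adrm1, Sem1 and the smallest p of each companion list. 1 gene that this rule names is not reported here. Psmb4, Psmd4, Psmd14, Psmg1, Tap1 and B2m were added after their values were seen. The genes and lists were chosen with earlier results of these data known. The alternatives included pseudocounts of 1 and 0.01, omission of the filter, a filter at 1 FPKM, only the groups compared, upper-quartile, quantile and equal-sum scaling, and each mouse left out in turn. A covariate for the slope on transcript length, leaving out 2 or 6 mice of high summed FPKM, and group medians were added after the data had been seen.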

Additional observations from a re-analysis of the deposited data

Results flagged for a closer look

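Within each group of mice, the gap between an extreme mouse and its nearest neighbour was set against the range of the group (Dixon's ratio, on the log2 scale) for each of the 51 genes and for their median, 156 times in all. In 4 cases the ratio passed the critical value, where chance gives about 1 in 20, or 7.80. All 4 were the high value of EtOH mouse C in the EtOH group, and each gene is a part of the regulatory particle or the PA28 activator. The ratio was 0.671 for Psme2, at 27.2 FPKM against 18.9 FPKM in the next mouse. It was 0.642 for the ATPase Psmc5 (124 against 97.2 FPKM), 0.578 for Psmd7 (69.1 against 58.6 FPKM) and 0.575 for Psmd4 (90.8 against 71.3 FPKM). EtOH mouse C had the third highest summed FPKM of all mice, and the part of that in these values was not tested. In the EtOH-UA group mice B and D were high together, and no ratio of that group passed.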

How the results depend on the processing

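No paired analysis was possible because the columns carry mouse numbers and no replicate numbers. Under every setting run, 0 of the 51 genes passed the adjusted threshold in any comparison. The count of higher genes in EtOH against Ctrl mice was 9 in the main analysis and 11 by group medians. It was 16 with equal summed FPKM, 17 without the 6 mice of highest summed FPKM and 28 with the length covariate. With single mice left out it was 5 to 15. In EtOH-UA against EtOH mice, 45 became 15 without the 2 EtOH-UA mice of highest summed FPKM, 21 with the covariate, 31 by group medians and 40 to 47 with single mice left out. In EtOH-UA against Ctrl mice, 46 became 5, 18 with the covariate, 16 without the 6 mice, 17 by group medians and 16 to 47 with single mice left out. Genes with an unadjusted p under 0.05 numbered 0 in EtOH against Ctrl mice and 1 without the 2 or the 6 mice. In EtOH-UA against EtOH mice, where the main count was 0, they numbered 4 with the covariate, 3 with quantile normalization, 2 with equal sums, and 1 with a pseudocount of 1, upper-quartile scaling, only the 2 groups or without the 6 mice. In EtOH-UA against Ctrl mice they numbered 1, and 2 with the covariate and 3 without the 2 mice. With single mice left out these counts were 0 to 1, 0 to 5 and 1 to 2. The exact permutation test counted 0, 0 and 1 genes, 1 in EtOH-UA against EtOH mice with a pseudocount of 1, and 0 to 7, 0 to 2 and 1 with single mice left out; the 7 arose without EtOH mouse C. Shares of all genes at an unadjusted p under 0.05 are given above for limma in the main analysis and for both tests without EtOH mouse C. For the other settings no such share is given, so these counts cannot be read as particular to the 51 genes. The causes of these shifts in the counts were not tested.

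Log2 fold changes near 0 turned sign. In EtOH against Ctrl mice these were, with the covariate, Psmb7 at 0.017, Psmb8 at 0.049, Psme1 at 0.049 and Psme2 at 0.079, without the 6 mice Psmb7 at 0.0063, Psmb8 at 0.037 and Psme2 at 0.033, with equal sums Psmb8 at 0.014, Psme1 at 0.015 and Psme2 at 0.00228, with upper-quartile scaling Psmb8 at 0.00763 and Psme1 at 0.00786, and with quantile normalization Psmb9 at -0.040 and Psme1 at 0.0098. In EtOH-UA against EtOH mice they were, with the covariate, Psmb7 at -0.10, Psmb8 at -0.018, Psmb9 at -0.12, Psmb10 at -0.062, Psmb11 at 0.040, Psme1 at -0.078, Psme2 at -0.064 and Psme4 at 0.040. Without the 2 mice they were Psmb6 at -0.025, Psmb7 at -0.14, Psmb8 at -0.039, Psmb9 at -0.12, Psmb10 at -0.071, Psmb11 at 0.037, Psme1 at -0.11, Psme2 at -0.087 and Psme4 at 0.055. Without the 6 mice they were Psmb7 at -0.089, Psmb9 at -0.050, Psmb10 at -0.016, Psme1 at -0.077 and Psme4 at 0.014, with quantile normalization Psmb7 at -0.019 and with equal sums Psme1 at -0.015. In EtOH-UA against Ctrl mice, Psmb11 was at 0.020 with the covariate and 0.074 without the 2 mice, Psmg2 at -0.0048 without the 2 mice, and Psme3ip1 at -0.036, -0.0070, -0.022, -0.099 and -0.056 with the covariate, quantile normalization, equal sums and without the 2 and the 6 mice.

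With single mice left out, the values that crossed 0 in EtOH against Ctrl mice ranged from -0.077 to 0.076 for Psmb8, -0.078 to 0.14 for Psmb9, -0.047 to 0.027 for Psme1, -0.12 to 0.031 for Psme2 and -0.030 to 0.028 for Psme3ip1. In EtOH-UA against EtOH mice they ranged from -0.037 to 0.11 for Psmb7, -0.068 to 0.20 for Psmb9, -0.043 to 0.080 for Psme1 and -0.052 to 0.034 for Psme3ip1, and in EtOH-UA against Ctrl mice from -0.080 to 0.033 for Psmb11 and -0.045 to 0.033 for Psme3ip1. The log2 ratio of Psmb10 to Psmb7 ranged from -0.047 to 0.028, -0.025 to 0.053 and -0.034 to 0.034 in the 3 comparisons. In EtOH-UA against Ctrl mice that of Psmb8 to Psmb5 ranged from -0.090 to 0.0078 and that of Psmb9 to Psmb6 from -0.093 to 0.11. Of the alternatives for single genes, 1330 kept sign and side of the threshold and 94 turned sign. Read depth is unknown, so values under 2 FPKM are imprecise to an unknown degree.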
